A study of Sus scrofa with 12 samples.

Results

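Cytokines, chemokines and their receptors were followed through porcine oviduct epithelial cells and the spheroids made from them. The members are all rows of the deposited expression table whose gene name is that of an interleukin or interleukin receptor, a CC, CXC or CX3C chemokine or receptor, a colony-stimulating factor, a TNF or TNF receptor superfamily gene, LIF or TSLP. They number 112 of 30461 gene rows, carry 110 symbols (3 rows are named IL28B and hold the same counts) and were chosen by name. The series holds 12 libraries of bulk 3′ mRNA sequencing, 4 in each of 3 groups. Fresh cells were epithelial cells scraped from the oviduct and taken as single cells. DMEM/F12 spheroids and incubation medium spheroids were multicellular clusters that the same kind of cells formed in culture, and they differ in the medium. The labels give all 12 libraries as oviduct epithelial cells of Sus scrofa; FBS stands without explanation in the names of the DMEM/F12 libraries and Diff in those of the incubation medium libraries, and composition of the media, time in culture, age and cycle stage are not given in the sources used here. The labels do not say whether the 4 libraries of a group came from separate animals, so the p-values measure only the spread between these libraries, which may be technical.

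Cytokines are small secreted proteins that pass signals between cells by binding receptors on the cell surface. Interleukins and colony-stimulating factors mostly act through receptors that recruit JAK kinases and STAT factors, IL-1 family and TNF family ligands act through adaptors that lead to NF-kappaB, and chemokines act through G protein-coupled receptors and guide the movement of leukocytes. In the oviduct the epithelium is both a source and a target of such signals, and several of them, CSF2 and LIF among them, are known as factors that act on the early embryo.

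Library totals ran from 5045218 to 8603809 counts, and all 4 fresh cell libraries lay below all 8 spheroid libraries. Members held between 0.172% and 0.313% of the counts of a library. Of 8 tested epithelial markers, 5 were called higher and 3 lower in DMEM/F12 and 4 higher and 3 lower in incubation medium against fresh cells. Among all tested genes the shares were 35.1% higher and 35.7% lower in DMEM/F12 and 35.8% each way in incubation medium. Values are given for EPCAM, CDH1 and OVGP1 only. EPCAM and CDH1 were detected in every library, at 777 to 1049 and 382 to 434 CPM in fresh cells, 513 to 804 and 1142 to 1352 in DMEM/F12 spheroids and 596 to 929 and 552 to 674 in incubation medium spheroids. OVGP1, the secreted oviduct glycoprotein that marks secretory cells, fell from 15908 to 26172 CPM in fresh cells to 186 to 696 and 191 to 762 CPM in the 2 spheroid groups. In bulk RNA, fewer cells of a type and less RNA per cell cannot be told apart. CPM here are counts scaled to library size, corrected by TMM factors, and they are compared between libraries for 1 gene, not between genes. Values are given in the order of replicates 1 to 4.

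A filter on low counts left 54 of the 112 members for testing (edgeR quasi-likelihood test, Benjamini-Hochberg adjustment over 14070 tested genes; a member is called where the adjusted p was under 0.05). A member could pass this filter through the group in which it was higher. Of the other 58, 27 had at most 3 counts in every library, the floor used here, and 31 rose above it in at least 1 library. In DMEM/F12 spheroids against fresh cells 20 members were called higher and 21 lower, against 35.1% higher and 35.7% lower over all tested genes. In incubation medium spheroids against fresh cells 19 were called higher and 22 lower, against 35.8% higher and 35.8% lower over all tested genes. With 37.0% and 35.2% of members called higher and 38.9% and 40.7% called lower, the shares were near those of all genes in both directions. The median absolute log2 fold change was 1.30 and 1.43 for the members against 0.69 and 0.72 for all tested genes. Members were not matched to all genes by level. Some of them, CCL17 and CX3CR1 among them, were at or under the floor in a whole group, which makes log2 values large. The larger medians are therefore not read as a trait of the members. Between the media, 8 members were called higher in incubation medium and 4 lower, where 12.7% of all tested genes were called higher and 12.3% lower. The shares of members were 14.8% and 7.41%, and the median absolute difference was 0.50 against 0.25, with the same limit.

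Both spheroid groups were compared with the same 4 fresh cell libraries, so the calls against fresh cells are not independent of each other. The TNF receptors TNFRSF12A, TNFRSF1B and TNFRSF21 and the ligands CSF2, CXCL8, CCL2 and IL18 were called higher in each medium against fresh cells. IL6, IL15, IL11RA, IL6R, TNF, TNFSF15 and CX3CR1 were called lower in each medium. The 6 tested members called in no comparison were CCL8, CCL25, CXCL16, LIF, TNFRSF13B and TNFRSF25. These calls come from a fit that leaves out the replicate number. With that number as a block, CCL8, CXCL16 and TNFRSF13B were called in at least 1 comparison.

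**Figure D1:**
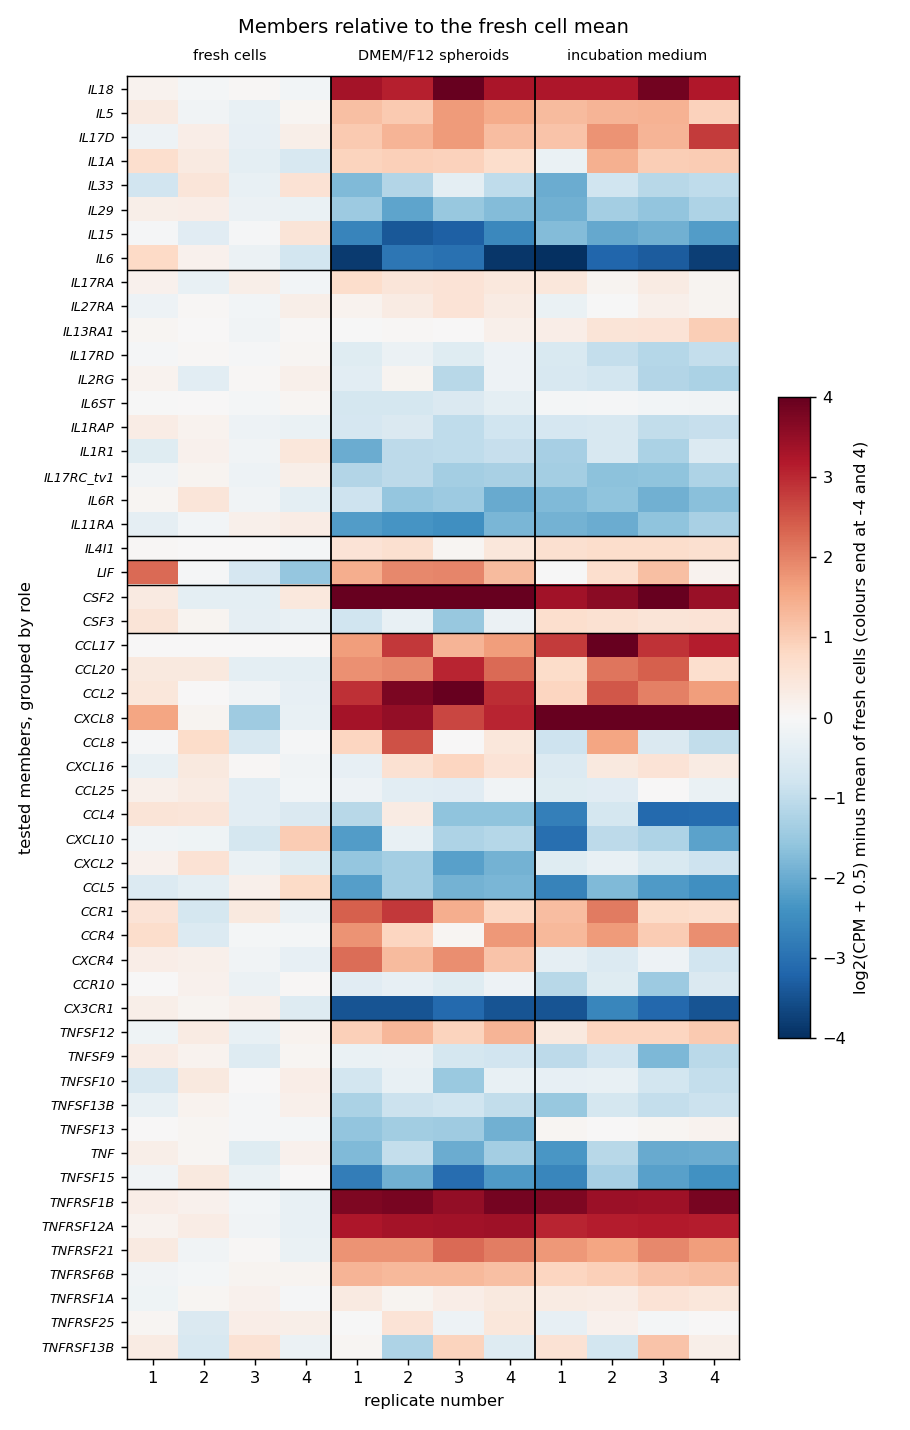
Log2(CPM + 0.5) of 53 of the 54 tested members minus the mean of the 4 fresh cell libraries (colour; red higher, blue lower, colours end at -4 and 4), with members in rows grouped by role and the 12 libraries in columns. TNF receptors are mostly red, IL6 and most interleukin receptors are blue in both spheroid groups, and CSF2 is red in all 8 spheroid libraries.

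CSF2 (ENSSSCG00025043767), the ligand known as GM-CSF, was near absent from fresh cells and abundant in DMEM/F12 spheroids. It had 2, 0, 0 and 2 counts in the fresh cell libraries, 34.4, 43.2, 82.8 and 33.6 CPM in DMEM/F12 spheroids (48.5 ± 23.3, mean ± SD, n = 4) and 6.20, 7.47, 10.3 and 6.72 CPM in incubation medium spheroids (7.68 ± 1.85). No library of 1 group overlapped with those of another. Because all fresh cell libraries were at or under 3 counts, the change is a lower bound, set against 3 counts per fresh cell library: at least 87.9-fold higher in DMEM/F12 spheroids (adjusted p = 1.56e-08) and at least 13.9-fold higher in incubation medium spheroids (adjusted p = 7.68e-06). Here and with the bounds of other genes below, the adjusted p belongs to the test for any difference in counts and does not test the bound. Without replicate 3 of the spheroid group the bounds of CSF2 were 67.1-fold in DMEM/F12 and 12.3-fold in incubation medium. Between the media CSF2 was lower in incubation medium, with a log2 difference of -2.65 (SE 0.29, adjusted p = 2.93e-05). The receptor subunits CSF2RA and CSF2RB were not analysed here.

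CSF3, the ligand known as G-CSF that drives neutrophil production, followed another order. It had 5.92, 4.30, 2.99 and 3.14 CPM in fresh cells, 2.07, 3.14, 1.06 and 3.24 in DMEM/F12 and 6.56, 6.27, 5.91 and 6.05 in incubation medium. All 4 incubation medium libraries lay above all DMEM/F12 libraries, while fresh cells overlapped with both. CSF3 was higher in incubation medium than in DMEM/F12, at a log2 difference of 1.37 (SE 0.29, adjusted p = 0.00332). Against fresh cells its fall in DMEM/F12, -0.77 (adjusted p = 0.0365), lost its call in several other fits, among them those without fresh replicate 1 (adjusted p = 0.153), without fresh replicate 2 (0.0711), without replicate 1 of DMEM/F12 (0.0851) or its replicate 3 (0.094). In incubation medium it was not called, 0.59 (adjusted p = 0.0758), but with the replicate number as a block it was called higher, 0.61 (adjusted p = 0.0389), as it was without fresh replicate 1, 0.83 (adjusted p = 0.0239). Its receptor gene CSF3R had at most 6 counts in any library and was not tested.

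Among the 21 chemokine rows 11 were tested. In DMEM/F12 spheroids 4 rose, 3 fell and 4 were not called against fresh cells (over all tested genes 35.1% rose and 35.7% fell). In incubation medium spheroids 4 rose, 4 fell and 3 were not called (over all tested genes 35.8% each way). CXCL8, CCL2, CCL17 and CCL20 were the 4 that rose, in both media.

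CXCL8 encodes the neutrophil attractant interleukin-8. It had 55.5, 19.7, 6.54 and 14.9 CPM in fresh cells, 186, 216, 119 and 153 in DMEM/F12 and 694, 904, 740.2 and 500.3 in incubation medium. The 3 groups did not overlap and stood in the order fresh cells, DMEM/F12, incubation medium. The log2 fold change was 2.79 (SE 0.43, adjusted p = 4.71e-05) in DMEM/F12 and 4.86 (SE 0.46, adjusted p = 3.73e-07) in incubation medium against fresh cells, and 2.07 (SE 0.40, adjusted p = 0.00172) between the media. Its receptor gene CXCR2 had at most 1 count in any library.

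CCL2, a monocyte attractant, stood in the other order of media. It had 27.8, 20.4, 18.5 and 16.3 CPM in fresh cells, 158, 282, 508 and 161 in DMEM/F12 and 37.7, 117, 83.0 and 66.4 in incubation medium. The groups did not overlap, and DMEM/F12 replicate 3 was the highest library. CCL2 rose by 3.73 on the log2 scale in DMEM/F12 (SE 0.42, adjusted p = 2.01e-06) and by 1.87 in incubation medium (SE 0.41, adjusted p = 0.000858), and the difference between the media was -1.87 (SE 0.37, adjusted p = 0.00227).

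CCL17, a ligand of the receptor CCR4, was at 0 counts in all fresh cell libraries. Its values were 1.09, 3.02, 0.794 and 1.08 CPM in DMEM/F12 spheroids and 2.98, 15.6, 3.20 and 3.90 CPM in incubation medium spheroids, with replicate 2 the highest of each group. Set against 3 counts per fresh cell library, it was at least 2.71-fold higher in DMEM/F12 (adjusted p = 0.00875) and at least 11.6-fold higher in incubation medium (adjusted p = 0.000246). These bounds rested on replicate 2: without it in the spheroid group they were 1.79-fold and 6.08-fold. The difference between the media was 2.06 (SE 0.62, adjusted p = 0.0319), with 1 DMEM/F12 library inside the range of the other group. That call was lost without DMEM/F12 replicate 1, 3 or 4 (adjusted p = 0.0758, 0.0777 and 0.0811) and without incubation medium replicate 2, where it became 1.14 (adjusted p = 0.0906). CCL20, a ligand of CCR6, had 2, 2, 0 and 0 counts in fresh cells, 1.82, 1.97, 4.90 and 2.64 CPM in DMEM/F12 and 0.597, 2.40, 2.95 and 0.537 CPM in incubation medium. It was at least 5.13-fold higher in DMEM/F12 (adjusted p = 0.000728) and at least 2.94-fold higher in incubation medium (adjusted p = 0.00653). Without replicate 3 of the spheroid group these bounds were 3.89-fold and 2.13-fold.

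CXCL2, another neutrophil attractant that binds CXCR2, moved against CXCL8 in DMEM/F12. Its values were 1103, 1477, 817 and 701 CPM in fresh cells, 339, 383, 216 and 263 in DMEM/F12 and 697, 805, 641 and 556 in incubation medium. Fresh cells lay above all DMEM/F12 libraries and overlapped with incubation medium, and the 2 spheroid groups did not overlap. The log2 fold change was -1.77 (SE 0.22, adjusted p = 6.68e-06) in DMEM/F12 and -0.60 (SE 0.22, adjusted p = 0.023) in incubation medium, and 1.17 (SE 0.22, adjusted p = 0.0016) between the media. The call in incubation medium was lost without fresh replicate 1 (adjusted p = 0.0527), without fresh replicate 2, where the value was -0.37 (adjusted p = 0.111), without incubation medium replicate 3 (0.0563) and without replicate 4 (0.072). The deposited counts of CXCL2 were not whole in 100% of libraries, so its values may hold reads shared with other genes.

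CCL5 and CXCL10, which attract T cells, were lower in spheroids. CCL5 had 6.79, 7.71, 11.8 and 17.6 CPM in fresh cells, 1.82, 3.72, 2.38 and 2.52 in DMEM/F12 and 1.19, 2.67, 1.72 and 1.48 in incubation medium, with no overlap between fresh cells and either medium. It fell by 2.05 in DMEM/F12 (adjusted p = 5.95e-05) and fell by 2.63 in incubation medium (adjusted p = 9.5e-06) on the log2 scale. CXCL10 had 8.53, 8.25, 5.61 and 19.4 CPM in fresh cells, 1.58, 7.55, 3.70 and 3.96 in DMEM/F12 and 0.716, 4.27, 3.69 and 1.75 in incubation medium, and fell by 1.9979 in incubation medium (adjusted p = 0.00335). In DMEM/F12 its fall was -1.30 (adjusted p = 0.0292) with overlapping libraries, and the call was lost without DMEM/F12 replicate 1 (0.0778), 3 (0.0625) or 4 (0.0607) and without fresh replicate 4, where the value was -0.82 (adjusted p = 0.152).

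CCL4 and CCL8 are CC chemokines that attract monocytes and lymphocytes. CCL4 had 28.0, 27.8, 14.6 and 12.9 CPM in fresh cells, 8.88, 24.7, 6.09 and 6.12 in DMEM/F12 and 2.51, 11.7, 1.85 and 1.88 in incubation medium. CCL8 had 9.05, 15.8, 5.80 and 9.02 CPM in fresh cells, 17.5, 57.4, 9.53 and 13.1 in DMEM/F12 and 5.01, 29.0, 6.03 and 4.43 in incubation medium. In both genes the library numbered 2 was the highest of each spheroid group. CCL4 fell in incubation medium, with a log2 fold change of -2.23 (SE 0.60, adjusted p = 0.00381), and was not called in DMEM/F12, -0.86 (adjusted p = 0.168), or between the media, -1.37 (adjusted p = 0.112). With the replicate number as a block both were called lower, -1.01 (adjusted p = 0.00207) and -1.40 (adjusted p = 0.00212), and without the 3 libraries numbered 2 they were -1.39 (adjusted p = 0.00177) and -1.75 (adjusted p = 0.00858). CCL8 was not called in any comparison: 1.30 (adjusted p = 0.0881) in DMEM/F12, 0.15 (adjusted p = 0.853) in incubation medium and -1.15 (adjusted p = 0.201) between the media. With the block it was called higher in DMEM/F12, 1.13 (adjusted p = 0.000757), and lower in incubation medium than in DMEM/F12, -1.18 (adjusted p = 0.00124). Single libraries also decided these calls: without DMEM/F12 replicate 2 CCL4 was -1.55 (adjusted p = 0.0182) in DMEM/F12, without incubation medium replicate 2 the differences between the media were -2.46 (adjusted p = 0.00807) for CCL4 and -2.24 (adjusted p = 0.0143) for CCL8, and without DMEM/F12 replicate 3 CCL8 was 1.58 (adjusted p = 0.0443) in DMEM/F12. Leaving out DMEM/F12 replicate 2 moved other values toward 0: CCL8 in DMEM/F12 was then 0.45 (adjusted p = 0.504), and the differences between the media were -0.66 (adjusted p = 0.453) for CCL4 and -0.28 (adjusted p = 0.776) for CCL8. CCL8 in incubation medium against fresh cells changed sign, to -0.05 (adjusted p = 0.871) with the block and -0.92 (adjusted p = 0.184) without incubation medium replicate 2.

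CXCL16, a membrane-bound chemokine that binds CXCR6, had 117, 189.6, 149.8 and 132 CPM in fresh cells, 116, 219.9, 263 and 211 in DMEM/F12 and 99.7, 192, 212 and 184 in incubation medium. The groups overlapped and no comparison was called, but the value in DMEM/F12 against fresh cells moved from 0.46 (adjusted p = 0.114) to a call, 0.41 (adjusted p = 0.00623), with the replicate block and to 0.67 (adjusted p = 0.0136) without DMEM/F12 replicate 1. CCL25, a ligand of CCR9, had 1.496 to 2.87 CPM in fresh cells, 1.46 to 1.92 in DMEM/F12 and 1.43 to 2.22 in incubation medium, and was not called.

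**Figure D2:**
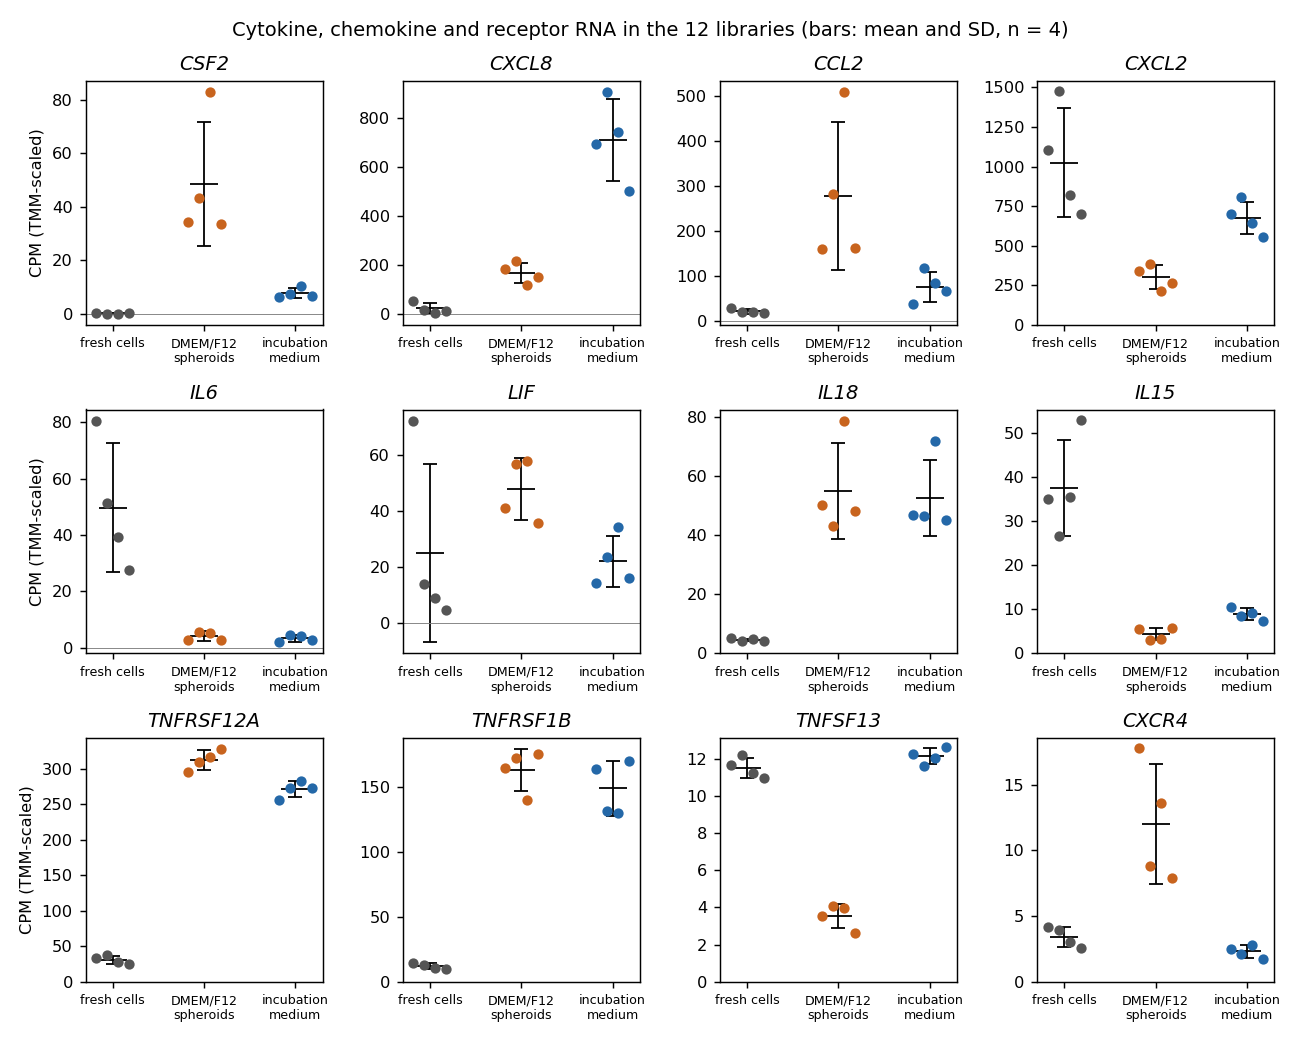
TMM-scaled CPM of 12 members in each library (points) with the mean and SD of each group (bars, n = 4); each panel has its own linear axis. CSF2, CCL2 and CXCR4 are highest in DMEM/F12, CXCL8 in incubation medium, and IL6 and IL15 in fresh cells, while 1 fresh cell library of LIF stands far above the other 3.

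Chemokine receptors gave 6 tested members of 13 rows. In DMEM/F12 3 rose, 1 fell and 2 were not called (over all tested genes 35.1% rose and 35.7% fell). In incubation medium 2 rose, 3 fell and 1 was not called (over all tested genes 35.8% each way). CXCR4, the receptor of CXCL12, had 4.18, 3.95, 2.99 and 2.55 CPM in fresh cells, 17.8, 8.83, 13.6 and 7.92 in DMEM/F12 and 2.51, 2.14, 2.83 and 1.75 in incubation medium. All DMEM/F12 libraries lay above all others. CXCR4 rose in DMEM/F12 at a log2 fold change of 1.80 (SE 0.28, adjusted p = 4.18e-05), and was lower in incubation medium than in DMEM/F12 at -2.37 (SE 0.28, adjusted p = 4.6e-05). Incubation medium against fresh cells gave -0.56 (adjusted p = 0.126), and with the replicate block it was called lower, -0.57 (adjusted p = 0.0487). The ligand gene CXCL12 had at most 7 counts in any library.

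CX3CR1, the fractalkine receptor of monocytes and some lymphocytes, had 5.92, 5.38, 5.80 and 3.33 CPM in fresh cells. In spheroids it had 0, 0, 1 and 0 counts in DMEM/F12 and 0, 3, 1 and 0 in incubation medium, all at or under the floor. It was at least 13.9-fold lower in DMEM/F12 (adjusted p = 4.71e-07) and at least 13.3-fold lower in incubation medium (adjusted p = 1.14e-06).

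CCR10, a receptor of CCL27 found on skin and mucosal lymphocytes, ranged over 1.496 to 2.15 CPM in fresh cells, 1.19 to 1.56 in DMEM/F12 and 0.369 to 1.20 in incubation medium, where it fell by 1.2169 (adjusted p = 0.00502). CCR1 and CCR4 rose in both media from at most 4 counts per fresh cell library. CCR1, a receptor of several inflammatory CC chemokines, had 4, 0, 3 and 1 counts in fresh cells, 31, 46, 13 and 8 in DMEM/F12 and 12, 22, 7 and 6 in incubation medium. CCR4, the CCL17 receptor, had 4, 0, 1 and 1 counts in fresh cells, 17, 7, 2 and 16 in DMEM/F12 and 11, 14, 8 and 16 in incubation medium. The log2 fold change of CCR1 was 2.96 (adjusted p = 0.0025) in DMEM/F12 and 1.98 (adjusted p = 0.0401) in incubation medium, and the latter was lost without fresh replicate 2 (0.0983), 3 (0.0505) or 4 (0.0885) and without incubation medium replicate 1 (0.0529) or 2 (0.129). Between the media CCR1 was -0.97 (adjusted p = 0.212), and lower with the block, -0.95 (adjusted p = 0.0478). CCR4 gave 2.15 (adjusted p = 0.0184) and 2.44 (adjusted p = 0.0076); its call in DMEM/F12 was lost without fresh replicate 2 (0.0517) or DMEM/F12 replicate 1 (0.0519), and that in incubation medium without the 3 libraries numbered 2 (0.0508).

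A separate list of 6 rows, 3 of them tested, was drawn up for receptors that bind chemokines without the usual signal. It also holds CMKLR1, the chemerin receptor, which is not of that kind. Of the tested rows 0 rose and 2 fell in DMEM/F12, where 35.1% of all tested genes rose and 35.7% fell. In incubation medium 1 rose and 2 fell, where the shares of all tested genes were 35.8% each way. ACKR3, which takes up CXCL12, had 96.4, 79.6, 70.3 and 89.4 CPM in fresh cells, 87.1, 54.1, 45.3 and 80.9 in DMEM/F12 and 111, 126, 87.6 and 190.1 in incubation medium, and rose in incubation medium against fresh cells, 0.62 (adjusted p = 0.028), and against DMEM/F12, 0.94 (adjusted p = 0.0087). ACKR4, a scavenger of homeostatic CC chemokines, fell in both media, -1.55 (adjusted p = 0.000356) and -1.52 (adjusted p = 0.00041). CMKLR1, the chemerin receptor, also fell, -2.0022 (adjusted p = 0.00299) and -2.48 (adjusted p = 0.000894).

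Interleukin ligands gave 8 tested members of 26 rows. In DMEM/F12 3 rose, 4 fell and 1 was not called (over all tested genes 35.1% rose and 35.7% fell). In incubation medium 4 rose and 4 fell (over all tested genes 35.8% each way). IL18, an IL-1 family cytokine held in epithelial cells as an inactive precursor, had 5.05, 4.30, 4.67 and 4.12 CPM in fresh cells, 50.1, 43.0, 78.9 and 48.1 in DMEM/F12 and 46.9, 46.5, 71.9 and 45.3 in incubation medium. Every spheroid library exceeded every fresh cell library, and the media overlapped. The log2 fold change was 3.59 (SE 0.24, adjusted p = 1.3e-08) in DMEM/F12 and 3.53 (SE 0.24, adjusted p = 1.53e-08) in incubation medium, with -0.06 (adjusted p = 0.845) between the media. Its receptor gene IL18R1 had at most 6 counts in any library.

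IL6, which drives the acute phase response, moved the other way. It had 80.6, 51.5, 39.3 and 27.6 CPM in fresh cells, 2.80, 5.81, 5.42 and 2.64 in DMEM/F12 and 2.03, 4.67, 4.18 and 2.96 in incubation medium. No spheroid library reached the lowest fresh cell library. The log2 fold change was -3.58 (SE 0.35, adjusted p = 4.63e-07) in DMEM/F12 and -3.85 (SE 0.36, adjusted p = 2.93e-07) in incubation medium. IL15, which sustains natural killer and memory T cells, had 35.2, 26.7, 35.5 and 52.9 CPM in fresh cells, 5.47, 3.02, 3.31 and 5.64 in DMEM/F12 and 10.6, 8.54, 9.23 and 7.39 in incubation medium, with no overlap between any groups. It fell by 3.10 in DMEM/F12 (SE 0.24, adjusted p = 4.57e-08) and fell by 2.06 in incubation medium (SE 0.22, adjusted p = 1.2e-06), and was higher in incubation medium than in DMEM/F12 by 1.03 (SE 0.25, adjusted p = 0.00809).

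IL17D, an epithelial and stromal member of the IL-17 family, had 3.48, 5.02, 3.18 and 4.90 CPM in fresh cells, 8.88, 11.2, 14.4 and 10.2 in DMEM/F12 and 9.66, 15.2, 11.2 and 31.6 in incubation medium, and rose by 1.43 (adjusted p = 0.00297) in DMEM/F12 and 2.02 (adjusted p = 0.000155) in incubation medium. IL5, the eosinophil growth factor, went from 0.935 to 1.74 CPM to 3.14 to 5.16 and 2.82 to 4.06, a rise of 1.65 (adjusted p = 7.55e-05) and 1.49 (adjusted p = 0.000196). IL29, the name the table gives to an interferon lambda gene, fell from 2.55 to 3.95 CPM to 0.348 to 0.851 in DMEM/F12 and 0.477 to 1.07 in incubation medium, at -2.30 (adjusted p = 2.07e-05) and -2.0003 (adjusted p = 5.98e-05). IL33, a nuclear alarmin of the IL-1 family, had 1.218, 3.59, 1.87 and 3.92 CPM in fresh cells, 0.365, 0.813, 1.72 and 0.961 in DMEM/F12 and 0.239, 1.20, 0.862 and 0.940 in incubation medium and was called lower in both media, -1.45 (adjusted p = 0.0153) and -1.70 (adjusted p = 0.00726); the call in DMEM/F12 was lost without fresh replicate 2 (adjusted p = 0.054) or 4 (0.0579).

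IL1A, an IL-1 receptor ligand, had 3.66, 2.87, 1.496 and 1.18 CPM in fresh cells, 4.38, 4.53, 4.50 and 3.72 in DMEM/F12 and 1.67, 6.54, 4.68 and 4.84 in incubation medium. In incubation medium the groups overlapped and the rise of 0.92 (adjusted p = 0.0478) lost its call without fresh replicates 2 (adjusted p = 0.0526), 3 (0.122) or 4 (0.131) and without incubation medium replicates 2 (0.145), 3 (0.0773) or 4 (0.0788). In DMEM/F12 all 4 libraries lay above fresh cells, but the value of 0.88 (adjusted p = 0.0579) was not called; it was called with the block, 0.88 (adjusted p = 0.0475), and without fresh replicate 1, 1.20 (adjusted p = 0.0236). Among the ligands that were not tested, IL1B had 3, 0, 0 and 0 counts in fresh cells, 3, 20, 4 and 3 in DMEM/F12 and 2, 34, 6 and 2 in incubation medium, so that 2 libraries, both numbered 2, held most of its counts.

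Among the interleukin receptors more members fell than rose. Of 11 tested members among 22 rows, 7 fell, 2 rose and 2 were not called in DMEM/F12, and 7 fell, 1 rose and 3 were not called in incubation medium. The lower calls were 63.6% of the tested receptors in each medium, against 35.7% over all tested genes in DMEM/F12 and 35.8% in incubation medium; nothing particular to so short a list is read from this. Both chains of the IL-6 receptor were measured. IL6R, the ligand-binding chain, had 28.5, 37.7, 24.3 and 20.4 CPM in fresh cells, 15.1, 8.94, 9.66 and 6.24 in DMEM/F12 and 7.64, 8.54, 6.77 and 8.06 in incubation medium, with no overlap of fresh cells and spheroids, and fell by 1.48 in DMEM/F12 (adjusted p = 5.43e-05) and fell by 1.84 in incubation medium (adjusted p = 8.31e-06). IL6ST, the signalling chain gp130 that IL-6, IL-11 and LIF share, had 52.2, 54.0, 50.5 and 56.1 CPM in fresh cells, 32.5, 32.8, 35.1 and 40.8 in DMEM/F12 and 50.3, 51.3, 49.1 and 47.7 in incubation medium. It fell in DMEM/F12 by 0.59 (SE 0.085, adjusted p = 2.3e-05), gave -0.10 (adjusted p = 0.297) in incubation medium and was higher in incubation medium than in DMEM/F12 by 0.49 (SE 0.084, adjusted p = 0.000785), without overlap.

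IL11RA, the IL-11 receptor chain, had 40.2, 47.9, 60.4 and 64.1 CPM in fresh cells, 10.8, 9.76, 9.13 and 14.4 in DMEM/F12 and 13.7, 12.8, 16.7 and 20.8 in incubation medium. It fell by 2.26 in DMEM/F12 (adjusted p = 1.19e-07) and fell by 1.73 in incubation medium (adjusted p = 1.26e-06), with no overlap. Between the media it was 0.53 (adjusted p = 0.0632), higher in incubation medium with the block, 0.53 (adjusted p = 0.00578), in DESeq2, 0.53 (adjusted p = 0.0456), and without DMEM/F12 replicate 4 (0.0291) or incubation medium replicate 2 (0.049). The ligand IL11 was not tested; it had 1, 2, 1 and 2 counts in fresh cells, 11, 9, 7 and 5 in DMEM/F12 and 3, 5, 3 and 9 in incubation medium. Scaled to library size, the DMEM/F12 libraries lay above fresh cells and the incubation medium libraries overlapped with them.

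The IL-1 receptor chains also fell. IL1R1, the ligand-binding chain, had 29.9, 47.5, 38.3 and 58.4 CPM in fresh cells, 10.3, 20.0, 20.5 and 21.9 in DMEM/F12 and 16.5, 26.8, 17.4 and 28.9 in incubation medium, at log2 fold changes of -1.26 (adjusted p = 0.000487) and -0.96 (adjusted p = 0.00333). IL1RAP, the shared accessory chain, had 46.1, 41.2, 32.3 and 31.0 CPM in fresh cells, 23.2, 24.6, 18.1 and 21.4 in DMEM/F12 and 23.1, 23.8, 18.3 and 19.2 in incubation medium, at -0.79 (adjusted p = 0.00021) and -0.84 (adjusted p = 0.000124). For both genes the highest of 8 spheroid libraries was under the lowest fresh cell library. The decoy receptor IL1R2 had at most 5 counts in any library.

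Among the IL-17 receptors, IL17RC_tv1, a signalling chain, had 18.4, 21.9, 17.6 and 23.9 CPM in fresh cells, 8.76, 9.53, 7.67 and 7.92 in DMEM/F12 and 7.64, 6.14, 6.28 and 8.33 in incubation medium and fell in both media, -1.27 (adjusted p = 2.46e-06) and -1.52 (adjusted p = 4.58e-07). IL17RD, an inhibitor of growth factor signals that also binds IL-17 receptor chains, had 29.8, 31.7, 30.1 and 32.5 CPM in fresh cells, 22.1, 26.0, 22.2 and 26.8 in DMEM/F12 and 20.3, 15.8, 13.9 and 15.7 in incubation medium, and stepped down from fresh cells to DMEM/F12, -0.35 (adjusted p = 0.0144), and further to incubation medium, -0.92 (adjusted p = 8.48e-06) against fresh cells and -0.56 (SE 0.12, adjusted p = 0.00314) between the media. Its call in DMEM/F12 was lost without DMEM/F12 replicate 1 (adjusted p = 0.0518) or 3 (0.0503) and with library totals as the scale (0.0562). IL17RA, the common chain, was higher in DMEM/F12, 0.53 (adjusted p = 0.00137), from 33.2 to 48.1 to 54.0 to 66.9 CPM. In incubation medium it had 43.8 to 55.7 CPM and 0.25 (adjusted p = 0.0872); with the block it was called higher than fresh cells, 0.25 (adjusted p = 0.014), and lower than DMEM/F12, -0.29 (adjusted p = 0.0114). It was also called higher than fresh cells without fresh replicate 3 (adjusted p = 0.0316) or incubation medium replicate 4 (0.0483).

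IL13RA1, a chain of the IL-4 and IL-13 receptor, was highest in incubation medium, with 45.8, 43.6, 39.1 and 44.7 CPM in fresh cells, 43.2, 44.8, 43.5 and 49.8 in DMEM/F12 and 51.5, 62.5, 64.0 and 86.2 in incubation medium. It was higher there than in fresh cells by 0.61 (adjusted p = 0.00073) and than in DMEM/F12 by 0.54 (adjusted p = 0.00652), without overlap. IL27RA, the IL-27 receptor, was called higher in DMEM/F12, 0.34 (adjusted p = 0.0247), with overlapping libraries (29.9 to 40.6 and 37.5 to 49.7 CPM), and that call was lost without fresh replicate 1 (0.0715) or 3 (0.0635) or DMEM/F12 replicate 3 (0.0636). Against DMEM/F12 it was -0.32 (adjusted p = 0.0693) in incubation medium, and called lower with the block, -0.32 (adjusted p = 0.0135), and without DMEM/F12 replicate 1 (0.0437). IL2RG, the common gamma chain of lymphocyte cytokine receptors, ranged over 1.61 to 2.74, 0.794 to 2.56 and 0.672 to 1.31 CPM in the 3 groups and fell in incubation medium, -1.24 (adjusted p = 0.00759); between the media it was called lower only without DMEM/F12 replicate 3, -1.03 (adjusted p = 0.0416). IL4I1, a secreted amino acid oxidase induced by IL-4 and not a cytokine, rose from 4.70 to 5.22 CPM to 5.29 to 8.13 and 8.06 to 8.54 CPM, at 0.48 (adjusted p = 0.0145) and 0.73 (adjusted p = 0.000835), and lost its call in DMEM/F12 without the 3 libraries numbered 2 (0.0957).

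LIF, a cytokine of the IL-6 family that acts on the embryo and the endometrium, turned on 1 fresh cell library. It had 72.1, 14.2, 8.98 and 4.70 CPM in fresh cells, 40.9, 56.6, 57.6 and 35.8 in DMEM/F12 and 14.3, 23.6, 34.1 and 16.3 in incubation medium. Fresh replicate 1 stood above every other library, and the other 3 fresh cell libraries lay below all DMEM/F12 libraries. With all libraries LIF was not called in DMEM/F12, 0.92 (SE 0.57, adjusted p = 0.163), or incubation medium, -0.19 (SE 0.59, adjusted p = 0.78). Without fresh replicate 1 it was called higher in both, at 2.35 (adjusted p = 6.25e-05) and 1.24 (adjusted p = 0.00809). The media did not overlap, and the difference was -1.11 (adjusted p = 0.169), which became -1.11 (adjusted p = 0.0104) in a fit of the 8 spheroid libraries alone. TSLP, an epithelial alarmin, had 4, 3, 2 and 2 counts in fresh cells, 1, 2, 1 and 0 in DMEM/F12 and 0, 1, 0 and 1 in incubation medium and was not tested.

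More tested TNF superfamily ligands fell than rose, and no tested receptor fell. Of 7 tested ligands among 10 rows, 5 fell, 1 rose and 1 was not called in DMEM/F12, and 4 fell, 1 rose and 2 were not called in incubation medium. Of 7 tested receptors among 14 rows, 5 rose and 2 were not called in each medium, and 0 fell. The shares over all tested genes were 35.1% higher and 35.7% lower in DMEM/F12 and 35.8% each way in incubation medium, so that the balance of both short lists is a description of their members. Between the media 1 ligand and 0 receptors were called.

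TNF itself, the inflammatory ligand of TNFRSF1A and TNFRSF1B, had 14, 12, 7 and 12 counts in fresh cells, 2, 7, 1 and 4 in DMEM/F12 and 0, 5, 1 and 1 in incubation medium. In CPM no spheroid library reached the lowest fresh cell library, and TNF fell by 2.23 in DMEM/F12 (SE 0.54, adjusted p = 0.00198) and fell by 3.11 in incubation medium (SE 0.61, adjusted p = 0.00037). TNFSF15, a T cell costimulator made by endothelium and epithelium, had 16.9, 24.7, 15.5 and 19.0 CPM in fresh cells, 2.31, 4.53, 1.85 and 3.48 in DMEM/F12 and 2.62, 7.21, 3.82 and 3.09 in incubation medium, and fell at -2.63 (adjusted p = 3.41e-06) and -2.19 (adjusted p = 1.47e-05). TNFSF12, also called TWEAK, was the ligand that rose, with 9.05, 12.9, 8.23 and 11.2 CPM in fresh cells, 20.3, 26.6, 19.5 and 26.8 in DMEM/F12 and 13.6, 18.7, 19.1 and 21.5 in incubation medium, at 1.17 (adjusted p = 4.26e-05) and 0.81 (adjusted p = 0.00109); between the media it was -0.36 (adjusted p = 0.135), and lower in incubation medium with the block, -0.35 (adjusted p = 0.0284).

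TNFSF13, the B cell factor APRIL, separated the media with little spread. It had 11.7, 12.2, 11.2 and 10.97 CPM in fresh cells, 3.53, 4.07, 3.97 and 2.64 in DMEM/F12 and 12.3, 11.6, 12.1 and 12.6 in incubation medium. The DMEM/F12 libraries lay far below the other 8. The log2 fold change was -1.69 (SE 0.15, adjusted p = 1.71e-07) in DMEM/F12, 0.08 (adjusted p = 0.623) in incubation medium and 1.77 (SE 0.15, adjusted p = 3.23e-06) between the media. TNFSF13B, the related factor BAFF, fell in both, from 2.61 to 3.92 CPM to 1.09 to 1.72 and 0.835 to 1.87 CPM, at -1.19 (adjusted p = 0.00132) and -1.21 (adjusted p = 0.00114). Their shared receptor gene TNFRSF13B had 5.74, 2.69, 6.92 and 3.72 CPM in fresh cells, 4.74, 1.63, 8.87 and 3.00 in DMEM/F12 and 7.04, 2.54, 10.5 and 5.37 in incubation medium. It was not called; its libraries stood in the same order of replicate numbers in all 3 groups, 3 the highest, then 1, 4 and 2. With the block it was called higher in incubation medium than in DMEM/F12, 0.52 (adjusted p = 0.0432).

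TNFSF9, the ligand of the costimulatory receptor 4-1BB, ranged over 2.80 to 5.22 CPM in fresh cells, 2.28 to 3.48 in DMEM/F12 and 0.862 to 2.27 in incubation medium. It fell in incubation medium, -1.37 (adjusted p = 0.0009), and with the block also in DMEM/F12, -0.57 (adjusted p = 0.026), and between the media, -0.80 (adjusted p = 0.018), where without it the values were -0.57 (adjusted p = 0.0823) and -0.80 (adjusted p = 0.067). Without fresh replicate 3 the fall in DMEM/F12 was -0.72 (adjusted p = 0.0354). TNFSF10, the death ligand TRAIL, had 11.7, 24.2, 18.7 and 22.1 CPM in fresh cells, 10.8, 15.0, 6.35 and 14.9 in DMEM/F12 and 14.6, 15.1, 10.8 and 9.27 in incubation medium. Its fall in DMEM/F12, -0.70 (adjusted p = 0.0315), lost its call without DMEM/F12 replicate 1 (0.0704) or 3 (0.0897) or fresh replicate 2 (0.103), 3 (0.0522) or 4 (0.0802), and in incubation medium it was -0.62 (adjusted p = 0.0509), called lower with the block, -0.60 (adjusted p = 0.0231), and without fresh replicate 1 (0.0131) or incubation medium replicate 2 (0.0479).

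TNFRSF12A, the TWEAK receptor Fn14, had 33.8, 37.5, 27.7 and 25.1 CPM in fresh cells, 295, 310.1, 317 and 329 in DMEM/F12 and 256, 274, 283 and 274 in incubation medium. Its 8 spheroid libraries lay close together and far above the fresh cell libraries, at a log2 fold change of 3.33 (SE 0.11, adjusted p = 2.87e-11) in DMEM/F12 and 3.13 (SE 0.11, adjusted p = 3.99e-11) in incubation medium. The incubation medium libraries lay below the DMEM/F12 libraries, at -0.20 (adjusted p = 0.151), which was called lower in a fit of the 8 spheroid libraries alone, -0.20 (adjusted p = 0.0489). TNFRSF1B, TNF receptor 2, had 14.3, 13.3, 10.8 and 9.60 CPM in fresh cells, 165, 172, 139.9 and 176 in DMEM/F12 and 164, 131, 130.5 and 170.1 in incubation medium, at 3.76 (SE 0.14, adjusted p = 8.87e-11) and 3.63 (SE 0.14, adjusted p = 1.06e-10). Both are receptors without a death domain. TNFRSF21, death receptor 6, went from 7.06 to 10.97 CPM to 30.8 to 42.7 and 26.7 to 34.0 CPM, at 2.03 (adjusted p = 3.96e-08) and 1.77 (adjusted p = 1.64e-07).

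TNFRSF6B, a soluble decoy receptor that binds FAS ligand and TNFSF15, had 30.5, 32.1, 36.8 and 36.5 CPM in fresh cells, 87.1, 83.4, 83.6 and 78.9 in DMEM/F12 and 61.9, 65.8, 75.3 and 78.9 in incubation medium, at 1.29 (adjusted p = 3.24e-08) and 1.05 (adjusted p = 2.53e-07); between the media it was -0.24 (adjusted p = 0.0691), lower in incubation medium with the block, -0.25 (adjusted p = 0.0356), and without incubation medium replicate 4 (0.0353). TNFRSF1A, the TNF receptor that carries a death domain, rose least, with 53.4, 63.7, 68.8 and 58.4 CPM in fresh cells, 77.4, 65.4, 73.8 and 79.7 in DMEM/F12 and 77.2, 75.6, 88.4 and 83.8 in incubation medium, at 0.28 (adjusted p = 0.0179) with overlapping libraries and 0.41 (adjusted p = 0.00143) without overlap. The call in DMEM/F12 was lost without fresh replicate 1 (adjusted p = 0.0583). TNFRSF25, a death receptor for TNFSF15, was not called in any comparison. Counts were not whole in 75.0% of libraries for TNFRSF12A and in 58.3% for TNFRSF1A, TNFRSF25 and IL17RC_tv1, so their values may hold reads shared with other genes.

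The 12 members called between the media were CSF2, CXCR4, CCL2 and IL17RD, lower in incubation medium, and CXCL8, CCL17, TNFSF13, CSF3, CXCL2, IL15, IL13RA1 and IL6ST, higher there. With the replicate number as a block, 10 members were called higher in incubation medium and 12 lower, compared with 8 and 4 without it. The block also raised the calls over all genes, from 3522 to 4613, or 16.6% higher and 16.2% lower. The 8 members added as lower were CCL4, CCL8, CCR1, TNFSF9, TNFSF12, TNFRSF6B, IL17RA and IL27RA, and those added as higher were IL11RA and TNFRSF13B. With library totals in place of TMM scaling, 8 members were called higher and 9 lower.

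**Figure D3:**
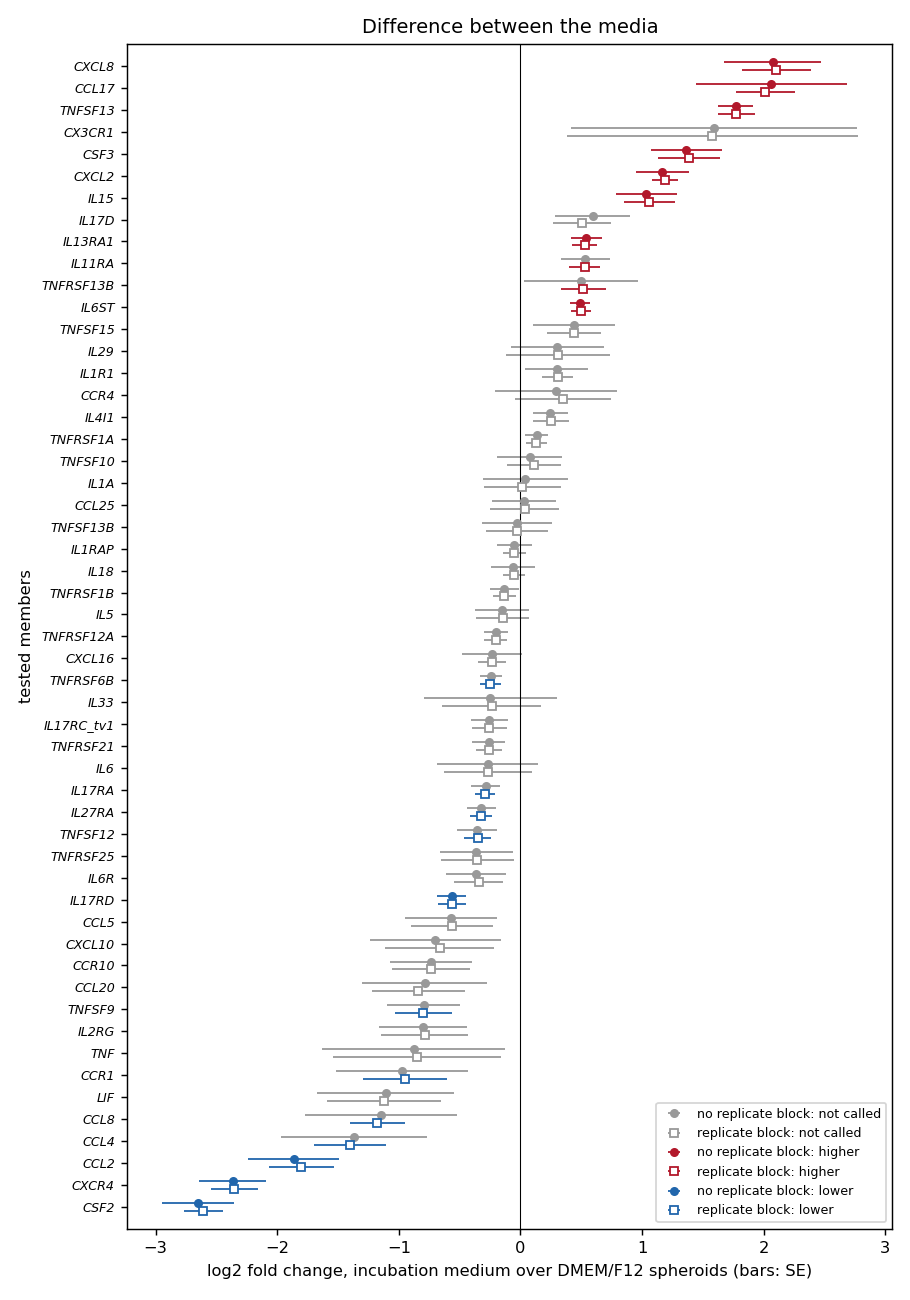
Log2 fold change of incubation medium over DMEM/F12 spheroids for 53 of the 54 tested members, without the replicate block (filled circles) and with it (open squares), with SE as bars; colour shows the call at an adjusted p under 0.05. CSF2, at -2.65, and CXCL8, at 2.07, are the 2 ends of the plot, and CCL4 and CCL8 change from grey to blue with the block.

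The pathways behind these receptors were followed with 4 lists. Their counts stand beside shares over all tested genes of 35.1% higher and 35.7% lower in DMEM/F12 and 35.8% each way in incubation medium. For NF-kappaB, with 22 of 22 genes tested, 9 rose and 8 fell in DMEM/F12 and 7 rose and 7 fell in incubation medium, with medians of 0.22 and -0.02 where all tested genes had -0.01 and -0.01. NFKBIZ, an inducible nuclear cofactor of NF-kappaB, had 199, 307, 233 and 277 CPM in fresh cells, 83.1, 91.5, 88.8 and 66.9 in DMEM/F12 and 52.0, 61.3, 60.7 and 49.2 in incubation medium, and fell at -1.62 (adjusted p = 1.27e-07) and -2.19 (adjusted p = 8.65e-09). NFKBIA, the inhibitor that NF-kappaB itself induces, fell from 431 to 637 CPM to 266 to 463 and 180.0 to 336 CPM, at -0.58 (adjusted p = 0.019) and -1.14 (adjusted p = 0.000149). IKBKE, an inducible IKK-related kinase, rose from 1.57 to 2.43 CPM to 8.27 to 12.3 and 5.37 to 9.74 CPM, at 2.39 (adjusted p = 1.36e-06) and 2.07 (adjusted p = 6.57e-06), and the subunit RELA rose at 0.66 (adjusted p = 5.24e-07) and 0.43 (adjusted p = 3.54e-05).

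For IL-1 and toll-like receptor signalling, 25 of 26 rows were tested; 12 rose and 9 fell in DMEM/F12 and 11 rose and 10 fell in incubation medium (medians 0.23 and 0.06). IRAK1, a kinase of this pathway, rose from 12.9 to 14.2 CPM to 31.1 to 36.0 and 38.2 to 48.6 CPM, at 1.31 (adjusted p = 5.17e-08) and 1.70 (adjusted p = 4.15e-09). LY96, the TLR4 partner that binds endotoxin, rose at 1.35 (adjusted p = 7.18e-08) and 1.55 (adjusted p = 1.83e-08), and TOLLIP, an inhibitor of the pathway, at 0.74 (adjusted p = 0.000215) and 0.58 (adjusted p = 0.00147). PYCARD, the inflammasome adaptor upstream of IL-18 processing, fell to under 1 CPM, at -1.99 (adjusted p = 0.000129) and -1.59 (adjusted p = 0.000612), and TLR9 fell at -1.24 (adjusted p = 0.0405) and -2.23 (adjusted p = 0.00279).

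For JAK-STAT and SOCS genes, 25 of 25 were tested; 10 rose and 8 fell in DMEM/F12 and 9 rose and 7 fell in incubation medium (medians 0.27 and 0.25). JAK3, the kinase bound by the common gamma chain, had 2.09, 3.05, 2.62 and 2.16 CPM in fresh cells, 34.1, 39.3, 34.0 and 44.2 in DMEM/F12 and 22.1, 21.1, 16.4 and 28.9 in incubation medium, with no overlap between any groups, at 3.92 (SE 0.21, adjusted p = 1.35e-09) and 3.15 (SE 0.21, adjusted p = 1.24e-08) against fresh cells and -0.78 (adjusted p = 0.00185) between the media. SOCS3, a feedback inhibitor of IL-6 signalling, fell from 84.6 to 122 CPM to 25.8 to 31.5 and 16.2 to 28.7 CPM, at -1.75 (adjusted p = 1.94e-07) and -2.13 (adjusted p = 3.4e-08). JAK1 fell slightly, -0.30 (adjusted p = 0.00669) and -0.32 (adjusted p = 0.00374), as did PIAS1, an inhibitor of STAT proteins, -0.49 (adjusted p = 6.83e-05) and -0.56 (adjusted p = 2.06e-05).

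Of 13 tested genes among 15 rows of epithelial inflammatory targets, 6 rose and 4 fell in each medium (medians 0.42 and 1.11). S100A12, a calcium-binding alarmin, was at 0 counts in fresh cells and had 4.74, 9.99, 6.35 and 5.28 CPM in DMEM/F12 and 6.44, 16.8, 22.5 and 4.30 CPM in incubation medium, at least 11.9-fold and at least 22.7-fold higher. These bounds were 9.89-fold without DMEM/F12 replicate 2 and 16.6-fold without incubation medium replicate 3. LTF, the iron-binding protein lactoferrin, had 277, 295, 246 and 263 CPM in fresh cells, 34.3, 34.8, 12.4 and 32.4 in DMEM/F12 and 63.6, 85.8, 60.3 and 73.2 in incubation medium, and fell at -3.24 (adjusted p = 2.87e-08) and -1.93 (adjusted p = 2.53e-06). C3, the central complement protein, fell at -1.32 (adjusted p = 0.00412) and -1.89 (adjusted p = 0.00031), and HP, haptoglobin, at -2.38 (adjusted p = 0.00577) and -2.53 (adjusted p = 0.00433). SAA3, an acute phase protein, had 303, 493, 163 and 364 CPM in fresh cells, 469, 472, 164 and 548 in DMEM/F12 and 958, 696, 503 and 693 in incubation medium and rose in incubation medium, 1.11 (adjusted p = 0.0107).

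Markers of other cell types were followed as well. Of 11 tested genes among 16 rows of leukocyte markers, 1 rose and 5 fell in DMEM/F12 and 2 rose and 7 fell in incubation medium. Over all tested genes 35.1% rose and 35.7% fell in DMEM/F12 and 35.8% each way in incubation medium. The marker that rose in both was CD79B, part of the B cell receptor, with 1, 3, 3 and 2 counts in fresh cells, 24, 46, 32 and 22 in DMEM/F12 and 16, 17, 19 and 21 in incubation medium, and the other that rose in incubation medium was CD79A, 0.24 (adjusted p = 0.0146). The summed level of the list ran over 573 to 663 CPM in fresh cells, 510.04 to 539 in DMEM/F12 and 547 to 642 in incubation medium, of which CD79A alone held 437 to 481, 409 to 474 and 497 to 598; CD79A counts were not whole in 91.7% of libraries. The 13 rows whose counts were not whole in fewer than 50% of libraries summed to 149, 141, 101 and 135 CPM in fresh cells, 74.7, 87.8, 34.7 and 33.6 in DMEM/F12 and 46.3, 69.9, 24.4 and 20.2 in incubation medium. This cut left out CD79A, was not part of the naming rule and was not applied to the members. The full sum overlapped between fresh cells and incubation medium, so the lower sum there depends on the cut. PTPRC, the pan-leukocyte surface protein CD45, had 8.53, 5.74, 7.29 and 6.47 CPM in fresh cells, 2.43, 3.37, 2.91 and 1.44 in DMEM/F12 and 1.31, 2.14, 1.11 and 0.269 in incubation medium, and ITGAM, an integrin of myeloid cells, had 5.74, 10.04, 4.86 and 6.86 CPM in fresh cells, 0.487, 2.56, 0.132 and 0.2401 in DMEM/F12 and 0.597, 2.80, 0.492 and 0.537 in incubation medium. ITGAM, CD79A, CD79B and the stromal genes named next were chosen after their values were seen. MS4A1, a B cell marker, had at most 1 count in any library, and CD3E, a T cell marker, had 7, 6, 4 and 14 counts in fresh cells, 0, 4, 1 and 0 in DMEM/F12 and 0, 4, 0 and 0 in incubation medium. CX3CR1, CCL4, CCL5, CXCL10, TNF, IL6, IL15 and IL2RG were called lower in at least 1 medium. In contrast, CCR1 and CCR4 were called higher in both. The part of leukocytes in either change was not tested.

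Stromal markers summed to 253 to 415 CPM in fresh cells, 1074 to 1223 in DMEM/F12 and 233 to 542 in incubation medium, mainly from TAGLN, and endothelial markers to 45.4 to 61.0, 142 to 257 and 97.4 to 162. Among the stromal genes, 1 of 6 tested rose and 2 fell in DMEM/F12 and 1 rose and 4 fell in incubation medium; COL3A1, a fibroblast collagen, fell from 14.2 to 31.4 CPM to 0.265 to 0.851 and 0.123 to 0.537 CPM. Of 4 tested endothelial genes 2 rose and 1 fell in DMEM/F12 and 3 rose and 1 fell in incubation medium. Beside both short lists, 35.1% of all tested genes rose and 35.7% fell in DMEM/F12, and 35.8% each way in incubation medium. The stromal sum was highest in DMEM/F12, but it rested mainly on TAGLN, and of the 6 tested stromal genes 1 rose and 2 fell there. Any link between these markers and the members was not tested.

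**Figure D4:**
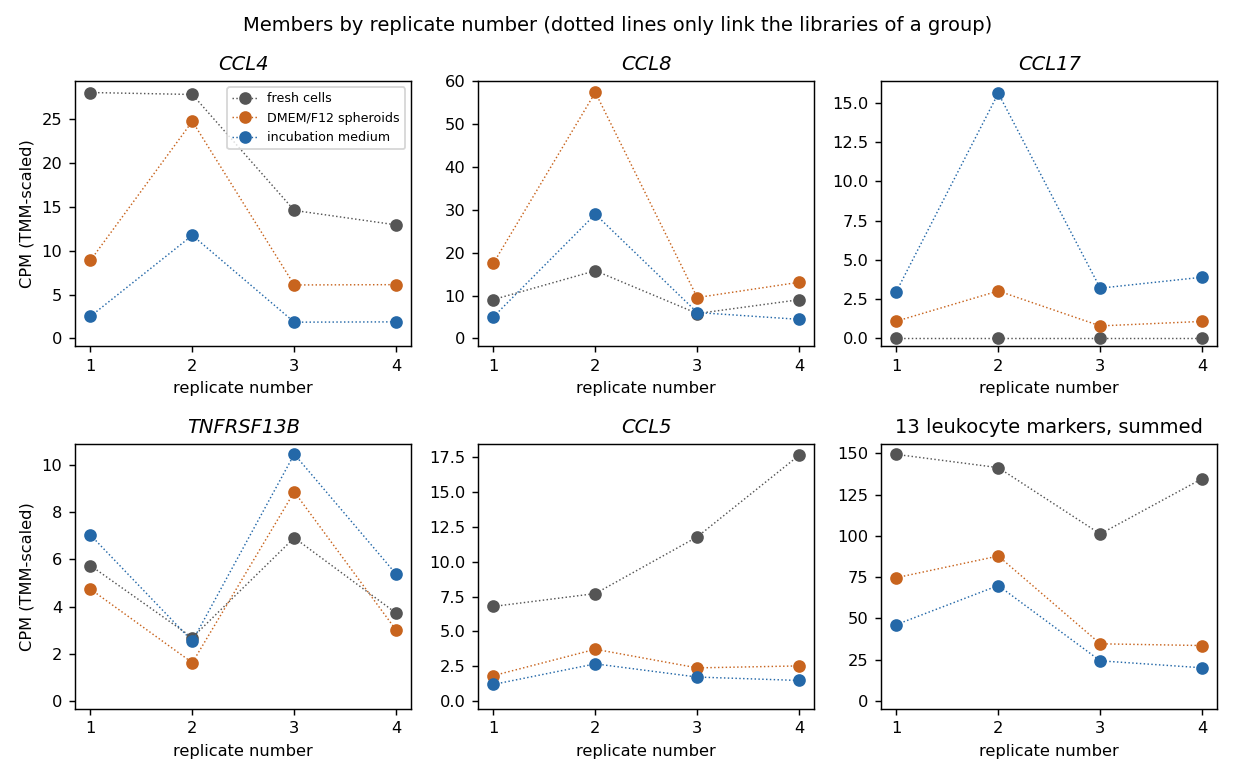
TMM-scaled CPM against replicate number in the 3 groups for CCL4, CCL8, CCL17, TNFRSF13B and CCL5, and for the sum of 13 leukocyte markers; each panel has its own linear axis. The spheroid libraries numbered 2 are the highest for CCL4, CCL8, CCL17 and CCL5, and for TNFRSF13B number 3 is the highest in every group.

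Members often peaked in the same replicate number of both media. This is not read as particular to the members, since peaks were not counted over all tested genes. Over all tested genes, libraries of the same number also deviated together between the media, at correlations of 0.394 to 0.516. The same number was highest in both spheroid groups for 33 of 54 tested members, and for 18 of them it was number 2, among them CCL4, CCL5, CCL8, CCL17, CXCL2, CXCL8, CXCL10, CCR1, IL1A, IL6, IL1RAP, IL4I1, TNF, TNFSF9, TNFSF10, TNFSF15 and TNFRSF25. Number 3 was highest in both for 9 members, among them CSF2, IL18 and LIF, number 4 for 5 and number 1 for 1. The leukocyte sum of 13 rows was also highest at number 2 in both spheroid groups, while the sum of all 16 rows was highest at number 3 in DMEM/F12 and number 4 in incubation medium. Leaving out the 3 libraries numbered 2 gave 18 members called higher and 20 lower in DMEM/F12 and 16 and 22 in incubation medium against fresh cells.

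The members under the test filter that are named here were chosen after their values were seen. How often other untested genes separated by group was not counted. CXCL9, an interferon-induced ligand of CXCR3, had 5, 6, 2 and 10 counts in fresh cells and 0 in all 8 spheroid libraries. IL10, an anti-inflammatory cytokine, had 4, 9, 2 and 6 counts in fresh cells, 0, 0, 0 and 0 in DMEM/F12 and 2, 1, 0 and 2 in incubation medium. CCR9, the CCL25 receptor, had 4, 4, 8 and 9 counts in fresh cells, 1, 0, 2 and 0 in DMEM/F12 and 2, 1, 0 and 2 in incubation medium. IL22RA2, a soluble IL-22 inhibitor, had 2, 3, 9 and 3 counts in fresh cells, 0, 0, 0 and 1 in DMEM/F12 and 0, 1, 0 and 0 in incubation medium. TNFRSF11A, the receptor RANK, had 4, 11, 12 and 8 counts in fresh cells, 4, 2, 1 and 1 in DMEM/F12 and 4, 3, 5 and 1 in incubation medium. TNFSF4, the OX40 ligand, had 10, 6, 10 and 8 counts in fresh cells, 5, 8, 6 and 7 in DMEM/F12 and 5, 8, 7 and 4 in incubation medium. CXCL11, another CXCR3 ligand, had 3, 5, 3 and 9 counts in fresh cells, 0, 11, 4 and 9 in DMEM/F12 and 0, 1, 0 and 1 in incubation medium. IL7R, the IL-7 receptor chain of lymphocytes, had 4, 1, 2 and 6 counts in fresh cells, 10, 15, 6 and 3 in DMEM/F12 and 1, 7, 0 and 1 in incubation medium. Scaled to library size, the libraries of IL7R overlapped in every comparison. Those of CXCL11 overlapped in all but incubation medium against fresh cells. In CXCL9, IL10, CCR9 and IL22RA2 the fresh cell libraries together held the higher counts although they were the shallower ones, and none of these genes was tested.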

How the data were processed

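The expected counts and the CPM per gene and library were those the authors deposited as 1 table; CPM equals the count over the library total, and 19.1% to 20.5% of the nonzero counts of a library were not whole. Per the submitters' processing notes, fastp 0.24.0, STAR 2.7.11, SAMtools 1.22.1, featureCounts and Subread 2.1.1 were used; the genome build is not given in the sources used here. The plan assumed whole counts, so the fractional ones were rounded. The 92 spike-in rows held at most 0.000614% of counts and were left out; 56.5% of the 30461 gene rows have no symbol. Library totals and the floor of 3 counts per library set the precision, and intervals are not given for single libraries.

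Libraries were grouped by the treatment in their labels. One model of all 12 libraries was fitted with edgeR 4.0.16 (limma 3.58.1, R 4.3.3; TMM scaling, edgeR's filter on low counts, quasi-likelihood test) and p-values were adjusted over 14070 genes; the biological coefficient of variation was 0.146. In data drawn with known changes for DMEM/F12 against fresh cells (14070 genes), calls recovered 48.0% of 1.5-fold, 79.6% of 2-fold, 98.0% of 4-fold and 100% of 8-fold changes, and 0.103% of unchanged genes were called. Only 49 or 50 genes were changed at each fold there, and the libraries were drawn independently. In the real comparison 9951 genes were called and libraries of the same number deviated together, so these rates may not hold for the reported calls. Alternatives were DESeq2 1.42.0, its size factors in edgeR, library totals as the scale, no filter, a mean of at least 10 counts, thinning to equal depth, rounding down, fits of the groups compared alone, leaving out each library, the replicate number as a block and, chosen after seeing the data, leaving out the 3 libraries numbered 2. Libraries of the same number deviated together: the correlations of their deviations from the group means over all tested genes were 0.196 to 0.516, at most 0.0233 for other numbers. The numbers, which come from the library names, were therefore used to pair the libraries in the alternative fit with a block. The main fit, which gave the reported calls and adjusted p, leaves this pairing out. Over the 54 tested members alone these correlations were 0.0895 to 0.403 for DMEM/F12 with fresh cells, -0.0655 to 0.274 for incubation medium with fresh cells and 0.372 to 0.788 between the media. The rule for named members took CSF2, up to 10 called members with the largest rise and 10 with the largest fall per comparison at a mean of at least 5 CPM, the 3 most abundant of each role and the receptor partners of named ligands, 36 tested members in all; the other tested members were added after their values were seen. In each pathway list it took the largest rise and fall and the 3 most abundant genes. The members, lists and naming rule were chosen with earlier results of these data known. Symbols absent from the table, such as CSF1, CSF1R, LIFR, OSMR, IL1RN, CXCR1 and CCR2, were not analysed here, and the values of 1 tested member, which stays in the counts, are not reported here. Tables were made with Python 3.11.15, pandas 2.3.3 and numpy 2.4.6.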

Additional observations from a re-analysis of the deposited data

Results flagged for a closer look

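Over the 36 tested members taken by the naming rule and the 3 groups, 108 sets of 4 libraries were checked, and 6 (5.56%) had 1 library far from the other 3 by Dixon's criterion, which chance gives in about 5% of sets. LIF stood at 72.1 CPM in fresh replicate 1. CCL4 stood at 24.7 CPM in DMEM/F12 replicate 2 and at 11.7 CPM in incubation medium replicate 2. IL18 stood at 71.9 CPM in incubation medium replicate 3. IL1R1 was lowest in DMEM/F12 replicate 1, at 10.3 CPM. CX3CR1 had 0.132 CPM in DMEM/F12 replicate 3 and 0 in the other 3 libraries, a difference of a single count. Without these libraries the call of LIF against fresh cells and that of CCL4 in DMEM/F12 against fresh cells and between the media changed, as given with those genes. The cause was not tested.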

How the results depend on the processing

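The counts of called members stayed within 1.5 times of those reported, with 3 exceptions. Members lower in incubation medium than in fresh cells numbered 34 with no filter on low counts and 22 with it; more genes are tested without the filter. Members lower in incubation medium than in DMEM/F12 numbered 4, and 9 with library totals and 12 with the replicate block. Over all genes, 3522 were called between the media, and 2041 with the 3 libraries numbered 2 left out, where fewer samples are fitted; this alternative was chosen after seeing the data. Leaving out 1 library at a time gave 19 to 20 members higher and 18 to 25 lower in DMEM/F12 against fresh cells, 17 to 21 higher and 22 to 25 lower in incubation medium against fresh cells, and 7 to 8 higher and 4 to 6 lower between the media. Over all genes it gave 9611 to 9948, 9805 to 10215 and 2795 to 3350 calls.

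Pairing by the replicate number as a block changed the call of 6 members in DMEM/F12 and 4 in incubation medium against fresh cells and of 10 between the media, given with those genes but for 1 in DMEM/F12; it changed no other call of a member. A call held in every alternative run for 32 of 41 called members in DMEM/F12, 37 of 41 in incubation medium and 11 of 12 between the media. Over all tested members and alternatives, 47 values changed sign, in 16 pairs of a member and a comparison, and 0 of these were called with all libraries. Among them were CCL8 in incubation medium, given with that gene, and, in at least 1 comparison each, TNFRSF13B, TNFRSF25, IL27RA, IL1A, IL33, IL5, CCL25, CCR4 and TNFSF13B. LIF in incubation medium against fresh cells became 0.0207 with the block and ran from -0.53 to 1.24 when 1 library was left out, and TNFSF13 in the same comparison became -0.0114 with thinned counts. Between the media TNFSF10 became -0.0219 with library totals. With 1 library left out, the difference between the media ran from -0.12 to 0.21 for TNFSF10, from -0.13 to 0.0133 for IL1RAP and from -0.25 to 0.16 for IL18. The cause was not tested.

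Of 112 members, a mean of 61.0 per library exceeded 3 counts in fresh cells, 61.5 in DMEM/F12 and 57.5 in incubation medium. At least 1 count was found for 86.0, 83.0 and 83.3, at least 10 counts for 47.0, 48.5 and 45.5, and over 3 counts after thinning to equal depth for 59.8, 55.8 and 51.8. A fall of a member at or under the floor was not detectable at this depth.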
